A study of Drosophila melanogaster with 66 samples.

Results

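The cuticle protein genes of Drosophila melanogaster were followed across whole adult flies of 4 generations, counted from founders that carried constructs for removing insulin-producing cells. They were taken as every gene with a probe set of its own whose symbol begins with Cpr and a number, Twdl, Lcp and a number or Ccp84, plus Pcp, and each was represented by the probe set with its highest mean level. The rule found 101 of the 11982 genes with a symbol on the array. They comprised 66 Cpr genes, 24 Tweedle genes, 7 larval cuticle protein (Lcp) genes, 3 Ccp84 genes and Pcp. By the RefSeq gene table, 38 lie on arm 3L, 26 on 3R, 22 on 2R, 8 on X and 7 on 2L. Of the 101, 61 fall into 19 runs of 2 or more directly neighbouring members, the longest of 6 genes.

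RNA from pools of 80 to 90 whole flies was hybridised to 66 Affymetrix arrays (32 of females and 34 of males), which form 10 groups in each sex. Founders (F0 test) were rpr/cyo; dilp3/ser in the w1118 background, where dilp3 is an ilp3-GAL4 driver, rpr is UAS-rpr (the cell-death gene reaper), and cyo and ser are the balancers CyO-YFP and Ser-GFP. From founder males and w1118 females came F1 siblings of 4 genotypes, rpr/+; dilp3/+, rpr/+; ser/+, cyo/+; dilp3/+ and cyo/+; ser/+. The F2 and F3 test flies descended through males from the F1 rpr/+; ser/+ genotype, were w1118 and carried none of the constructs. The F1, F2 and F3 controls were w1118 throughout. The arrays set against founders and siblings are labelled F1 control, although the design text calls the profiled w1118 flies of that stage F0 controls. Groups held 3 arrays, and 4 in F2 males and in both sexes of F3. Flies were raised at one temperature and collected within the first 5 days of eclosion of a culture. The labels give no age for the flies of an array, so age was not used, and its part in any difference below was not tested.

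The adult cuticle is an extracellular layer of chitin fibres and proteins secreted by the epidermis. Most Cpr proteins carry the Rebers and Riddiford domain, which binds chitin, and Tweedle proteins form another chitin-binding family. Lcp genes were first described from larval cuticle, and Pcp from pupal cuticle. Epidermal cells begin to lay down adult cuticle in the pupa and go on adding layers in the early days of adult life, so many of these genes are known to be active for a short time and then to shut off.

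Levels are GCRMA values on the log2 scale, with a lowest value of 2.23 and a highest of 15.74 on these arrays. A level near 2.23 is the bottom of the scale, so a fold against it is a lower bound, taken against the filter level of that sex (2.51 in females and 2.63 in males). Changes are called below where limma's p, adjusted by Benjamini-Hochberg across every entry of the fit, was under 0.05. Arrays labelled with the same replicate number in the test and control lineages also shared a batch in F2 and F3, and their number limits the precision. One array stood against its label. The male F2 control array number 3 had Cp36, an eggshell gene, at 11.33 and osk, an oocyte gene, at 10.21, against 2.39 and 2.47 on the male F2 test array of the same number. The summed level of the 9 ovary and eggshell genes on the array was 14.79 there and at most 7.60 on every other male array. Its levels of Cpr92F, Cpr100A, Cpr62Bc, Cpr49Ae and Cpr97Eb differed from those of its test partner by at most 0.40 log2 units. Cpr49Ac was 1.04 log2 units lower than on that partner. The counts that include this array, with any call that changes, are given with and without it. Because whole flies were used, fewer cells of a type and less RNA per cell cannot be told apart.

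Most cuticle protein genes were low in these adults. In 1 or more groups 23 members had a mean level above 4 and 12 had one above 6, and all 12 were Cpr genes. The 23 comprised 20 Cpr genes, the Tweedle genes TwdlT and Twdlalpha, and Pcp. After the filter on low values 62 members were tested in females and 33 in males, 31 of them in both, and 37 in neither. By family, 47 Cpr, 9 Tweedle and 5 Lcp genes and Pcp were tested in females, and 27 Cpr and 6 Tweedle genes in males. No Ccp84 gene was tested in either sex. Among the 37 untested members, 6 exceeded a level of 4 on some array, with Cpr76Bd the highest at 5.64. That value came from the female F2 control array number 2, and Cpr76Bd was at 4.59 on the test array of that number.

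**Figure D1:**
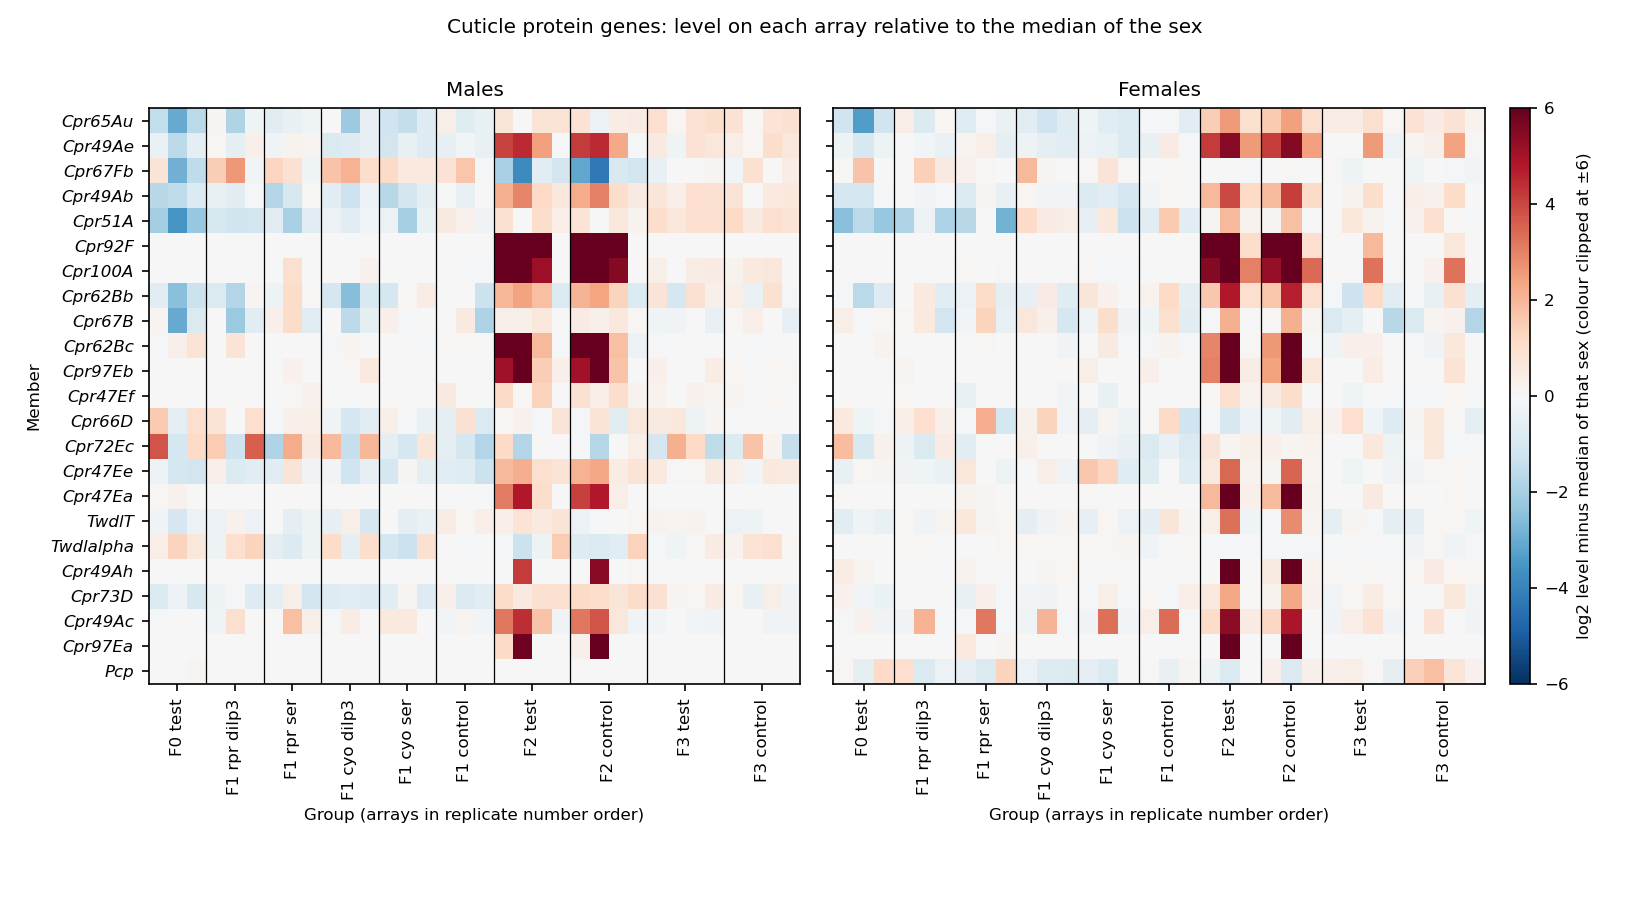
Level of the 23 members with a group mean above 4 on each array, as the log2 difference from the median of that sex (colour, clipped at ±6), with males left and females right and the groups separated by lines. The deep red blocks in F2 show Cpr92F, Cpr100A, Cpr62Bc and Cpr97Eb high on some F2 arrays of both lineages and near the median on most other arrays. Cpr100A was also raised on the F3 female arrays numbered 3.

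The largest differences among cuticle protein genes lay between arrays of one F2 group. The 8 members with the largest residual standard deviation around their group means were Cpr92F, Cpr62Bc, Cpr100A, Cpr97Eb, Cpr97Ea, Cpr49Ah, Cpr49Ac and Cpr72Ec. Cpr92F led with 2.15 log2 units, above 99.95% of all entries on the array, and Cpr72Ec closed the list with 1.23. For the first 7 the spread came with the replicate number in F2. Test and control arrays that shared a number also shared the level.

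Cpr92F, a Cpr gene of arm 3R, was at 9.08, 11.86 and 3.26 on the F2 female test arrays numbered 1, 2 and 3, against 9.09, 12.03 and 3.25 on the F2 female control arrays. In F2 males it was at 11.90, 12.31, 9.22 and 2.23 on test arrays 1 to 4, against 12.16, 12.19, 9.19 and 2.23 on control arrays. In both sexes number 2 was highest, number 1 next and number 3 lower, and the lineages overlapped. Male number 4 sat at the bottom of the scale. The highest number mean was 413-fold above the lowest in F2 females and at least 785-fold in F2 males. Outside F2, Cpr92F did not exceed 2.24 in F0 and F1 flies of either sex or in F3 males. In F3 females it left the bottom of the scale on the arrays numbered 3, at 4.20 in the test and 2.90 in the control lineage.

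Cpr100A kept the same order of F2 arrays. It was at 8.0, 12.24 and 5.51 on the F2 female test arrays, against 7.71, 12.48 and 5.90 on the control arrays. In F2 males it was at 10.08, 12.13, 7.61 and 2.49 on the test arrays, against 10.16, 12.29, 8.01 and 2.47 on the control arrays. The lineages overlapped in both sexes, and male number 4 again stood at the level of other generations. Cpr100A spanned 101-fold over F2 female numbers and at least 761-fold over F2 male numbers. In F3 females Cpr100A stood at 5.74 on test array 3 and 5.76 on control array 3, while the other F3 female arrays lay between 2.43 and 2.76.

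Cpr62Bc, which lies beside Cpr62Bb and Cpr62Ba on arm 3L, was at 5.51, 11.08 and 2.66 on the F2 female test arrays, against 5.17, 11.65 and 2.58 on the control arrays. In F2 males Cpr62Bc was at 8.55, 11.07, 4.53 and 2.46 on the test arrays, against 8.83, 11.34, 4.39 and 2.23 on the control arrays. It spanned 430-fold in females and at least 381-fold in males, and on F0, F1 and F3 arrays it stayed at or below 3.42. Cpr62Bb varied less, at 9.27, 9.68, 9.09 and 6.49 on the F2 male test arrays, against 9.34, 9.66, 8.63 and 6.49 on the control arrays. Cpr62Ba was tested in neither sex.

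Cpr97Ea and Cpr97Eb are direct neighbours on arm 3R and differed in how far down the series of arrays they reached. Cpr97Eb was at 5.58, 10.56 and 2.96 on the F2 female test arrays, against 4.96, 10.76 and 3.16 on the control arrays. In F2 males Cpr97Eb was highest on number 2 in both lineages, with 7.63, 4.04 and 2.85 on test arrays 1, 3 and 4, against 7.60, 4.29 and 2.53 on those control arrays. Cpr97Ea stood clear of the bottom of the scale on the arrays numbered 2, with 8.73 in test and 9.23 in control F2 females and 8.07 in test and 8.48 in control F2 males. On the male arrays numbered 1 Cpr97Ea was at 3.39 in the test and 2.53 in the control lineage, and on the remaining F2 arrays of both sexes at 2.23. Cpr97Eb therefore graded over numbers 2, 1 and 3 and spanned 194-fold in females and 212-fold in males.

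Cpr49Ah, on arm 2R, was likewise high on number 2, with 8.80 in test and 9.27 in control F2 females and 6.42 in test and 7.70 in control F2 males. No other F2 array had Cpr49Ah above 2.80. Cpr49Ac was at 3.54, 7.84 and 2.94 on the F2 female test arrays, against 3.71, 7.38 and 2.49 on the control arrays, and in F2 males at 5.63, 6.90, 4.19 and 2.26, against 5.63, 6.24, 3.14 and 2.26. Cpr47Ea was at 4.20, 8.32 and 2.57 on the F2 female test arrays, against 4.17, 8.42 and 2.45 on the control arrays. For each of these genes number 2 was the highest in both sexes and both lineages.

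Cpr49Ae differed from the others in being well above the bottom of the scale on every array. It was at 12.45, 13.70 and 10.80 on the F2 female test arrays, against 12.39, 13.76 and 10.71 on the control arrays, and in F0 and F1 females it lay between 7.29 and 8.75. In F2 males it was at 12.96, 13.37, 11.39 and 8.80 on the test arrays, against 13.11, 13.39, 11.18 and 8.80 on the control arrays. All F2 female arrays were above the F0 and F1 females, whereas male number 4 fell within the F0 and F1 male range of 7.36 to 9.23. Cpr49Ae spanned 7.88-fold over F2 female numbers and 23.9-fold over F2 male numbers.

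**Figure D2:**
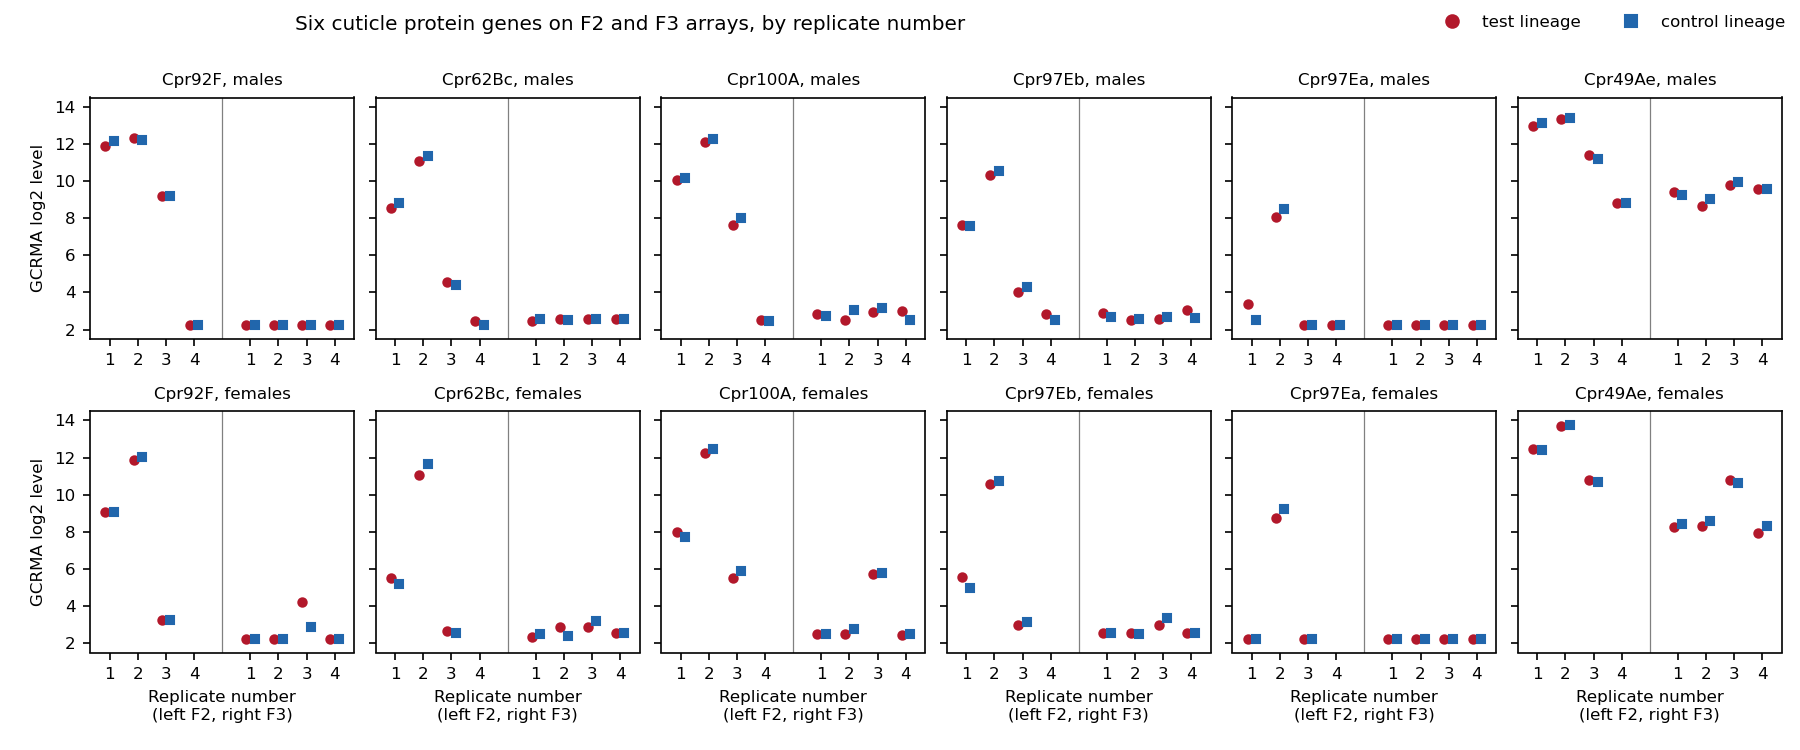
GCRMA log2 level of 6 members on each F2 and F3 array against replicate number (F2 left, F3 right of the grey line), with males above and females below, the test lineage as circles and the control lineage as squares. Circles and squares of one number nearly coincide, F2 number 2 is highest in both sexes, and Cpr92F reaches 12.31 on F2 male test array 2 against 2.23 on array 4.

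An F test of the replicate number beside the lineage, fitted with limma on all entries, measured how widely this reached. It was chosen after the data were seen and rests on 2 residual degrees of freedom in F2 females and 3 in F2 males. In F2 females it called 24 of 62 members (38.7%), against 58.2% of all entries tested. In F2 males it called 20 of 33 members (60.6%), against 36.2% of all entries. Being called was thus common on the whole array, and the share of members lay below it in females and above it in males. In both sexes Cpr92F passed the filter on low values only because of its F2 arrays. In females the F3 arrays numbered 3 also lay above the filter level, but they were fewer than the 3 arrays needed. Its call and its span therefore reuse the values that admitted it, as may hold for other members. The male share was not tested against that of all entries. For some members the span over numbers was wide beside the gap between lineages. The number means lay more than 4 log2 units apart in 8 of 62 members in females (2.53% of all entries) and 8 of 33 in males (1.07% of all entries). Among tested members the 7 past that span in both sexes were Cpr100A, Cpr47Ea, Cpr49Ac, Cpr62Bc, Cpr92F, Cpr97Ea and Cpr97Eb. They were joined by Cpr49Ah in females and Cpr49Ae in males. Cpr49Ah did not enter the male test, though on F2 male number 2 it was at 6.42 in the test and 7.70 in the control lineage. The other F2 male arrays had Cpr49Ah at 2.32 or below. In all 8 of each sex number 2 was highest in both lineages, and their spans ran from 4.90 to 8.75 in females and 4.31 to 10.02 in males. The largest difference between test and control arrays of one number was 0.62 log2 units in females and 1.04 in males over these genes.

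**Figure D3:**
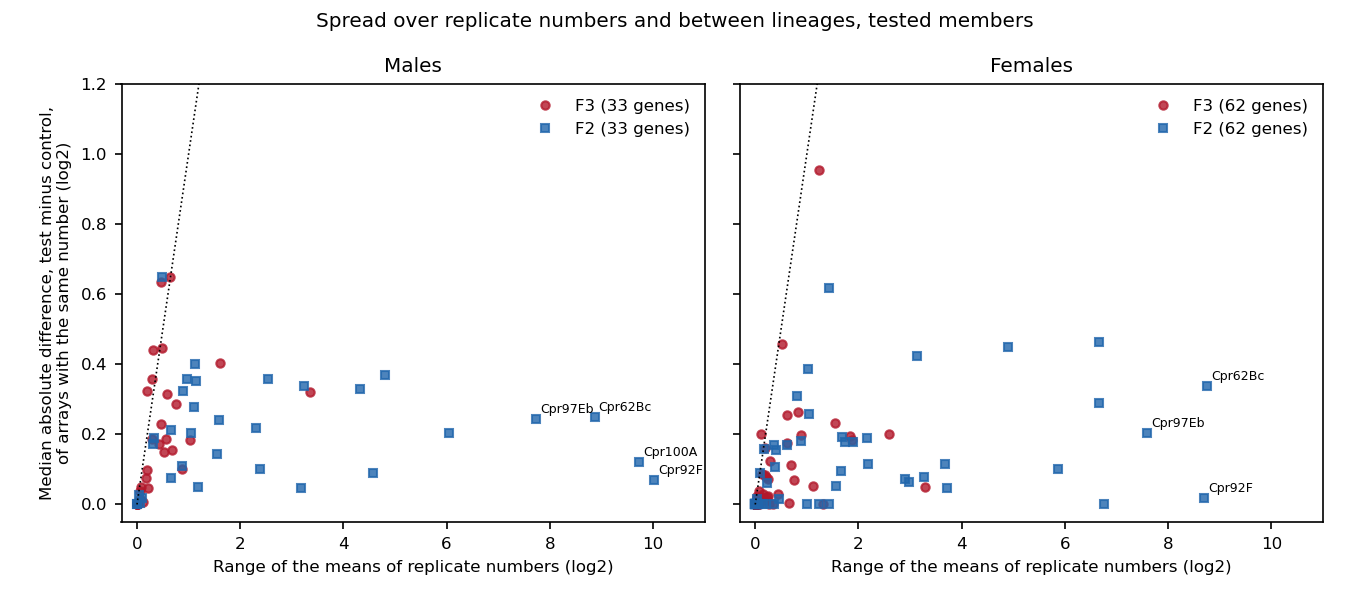
Each tested member's range of replicate number means (x axis, log2) against the median absolute difference between test and control arrays of the same number (y axis, log2), males left and females right, F2 as squares and F3 as circles; the dotted line marks equal values. F2 ranges reach 10.02 in males and 8.75 in females, far right of the dotted line.

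The called members did not all follow one direction. Of the 24 called in F2 females, 21 were Cpr genes, with TwdlT, Lcp65Ag3 and Pcp. Number 2 was highest in both lineages for 23 of them and lowest for Pcp. TwdlT was at 4.24, 7.19 and 3.62 on the F2 female test arrays, against 3.82, 6.72 and 4.02 on the control arrays. Of the 20 called in F2 males, 19 were Cpr genes and the other was Twdlalpha. Number 2 was highest in both lineages for 12 and lowest for 5, namely Cpr51A, Cpr65Au, Cpr67Fb, Cpr72Ec and Twdlalpha. Cpr67Fb was at 7.10, 5.23, 8.37 and 7.97 on the F2 male test arrays, against 5.96, 4.79, 8.13 and 7.98 on the control arrays. Cpr65Au and Cpr51A thus stood lowest on number 2 in males and highest on number 2 in females. In all, 16 members were called in both sexes, which is 66.7% of the female and 80.0% of the male calls.

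Batch did not separate from number on every array. F2 female number 2 was alone in its batch, as were F2 male numbers 2 and 3, so for these arrays batch and number cannot be told apart. Single batches held part of the differences. Between F2 female numbers 1 and 3, which shared batch 1, 6 of the 24 called members differed by more than 1 log2 unit, and between F2 male numbers 1 and 4, which shared batch 2, 13 of 20 did. These members had been picked by the F test on the same arrays, and the share of all entries is not given. The counts therefore only describe the picked members. Cpr97Ea was at 2.23 on both female numbers, and Cpr49Ah averaged 2.51 on number 1 and 2.37 on number 3, so that their female spans rest on number 2. In that female batch Cpr92F averaged 9.09 on number 1 and 3.26 on number 3 and Cpr49Ae 12.42 and 10.75. In the male batch Cpr92F averaged 12.03 on number 1 and 2.23 on number 4, Cpr100A 10.12 and 2.48, and Cpr62Bc 8.69 and 2.34. Without number 2 the test called 0 members in F2 females. Leaving out 1 number gave 8 without number 2, 8 without number 4, 17 without number 1 and 21 without number 3, the number that holds the array with eggshell transcripts, in F2 males. These fits had fewer residual degrees of freedom than the full ones, and their share of all entries called is not given. The counts therefore do not show which number carried the calls.

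Genes of related lists, written with earlier results of these data known, were read against the 58.2% of all entries called over F2 female numbers and the 36.2% called over F2 male numbers. Among 7 tested genes of other cuticle proteins 4 were called over F2 female numbers, and 3 of 3 over F2 male numbers, so the female share was close to that of all entries. Acp65Aa, a cuticle protein of young adults, was at 9.91, 12.55 and 5.69 on the F2 female test arrays, against 9.90, 12.57 and 5.58 on the control arrays. In F2 males it was at 10.01, 11.27, 4.49 and 2.32, against 10.28, 11.29, 4.23 and 2.32. Acp65Aa thus repeated the order of Cpr92F. It was also higher on F3 female array 3, at 5.61 in the test and 5.83 in the control lineage, where the other F3 females had at most 2.78.

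Genes for making and shaping chitin had 23 of 28 called over F2 female numbers and 21 of 28 over F2 male numbers. The number means of 11 of the 28 in females and 12 of the 28 in males lay more than 4 log2 units apart. Of all entries, 2.53% in females and 1.07% in males passed that span. Number 2 was highest in both lineages for all of these chitin genes but Cht4. In males Cht4 was lowest on number 2 in both lineages. The chitin synthase gene kkv was at 2.97, 8.77 and 2.24 on the F2 female test arrays, against 2.84, 9.13 and 2.51 on the control arrays. In F2 males kkv was at 4.94, 8.21, 2.90 and 2.27, against 4.90, 8.45, 2.61 and 2.37. The chitin deacetylase gene verm was at 8.77 in test and 9.06 in control F2 females on number 2, and at most 3.41 on the other F2 female arrays. Genes for tanning were called in 8 of 10 tested in females and 3 of 9 in males, among them stw, which was at 7.11, 10.23 and 6.59 on the F2 female test arrays, against 6.97, 10.83 and 6.60 on the control arrays.

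Fbp1, a fat body protein gene of the larva, also tracked the F2 arrays. It was at 7.40, 11.51 and 4.22 on the F2 female test arrays, against 7.50, 11.33 and 4.48 on the control arrays, and in F2 males at 9.49, 11.49, 7.14 and 2.23, against 9.61, 11.11, 5.90 and 2.23. On founder and F1 control arrays Fbp1 stayed at 2.23. Of the larval list 2 of 6 genes were called over F2 female numbers and 3 of 3 over male numbers. Of the moulting regulators 7 of 11 and 6 of 9 were called in females and males, and of the eclosion and tanning hormones 2 of 6 and 0 of 5. The larval share was below that of all entries in females and above it in males. The female share of the moulting list was near that of all entries, and the hormone shares were below those of all entries.

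Some markers of reproductive tissue differed on the same arrays. On F2 female number 2 Cp36 was at 8.18 in the test and 2.77 in the control lineage, and at 13.61 to 13.95 on the other F2 female arrays. Yp1 was at 11.14 in the test and 9.20 in the control lineage there, against 13.71 to 13.86 elsewhere in F2 females. The summed log2 level of the 9 ovary and eggshell genes ran from 13.98 to 16.75 on F2 female test arrays and 12.77 to 16.82 on control arrays. Over F2 female numbers 5 of 9 ovary and eggshell genes were called, against the 58.2% of all entries. So were 1 of 7 testis and 0 of 9 seminal fluid genes. In F2 males 10 of 10 seminal fluid genes were called, 1 of 8 testis genes and 0 of 7 ovary genes, against the 36.2%. Acp36DE, a seminal fluid protein gene, was at 13.17, 11.53, 13.19 and 11.78 on the F2 male test arrays, against 13.16, 10.95, 13.02 and 11.84 on the control arrays. The part of tissue composition in the cuticle values was not tested.

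Replicate numbers spanned less in the other generations. No member had number means more than 4 log2 units apart in F0 and F1 females (0.453% of all entries) or F0 and F1 males (0%). In F3 females the widest ranges of number means were 3.29 for Cpr100A and 2.59 for Cpr49Ae. Cpr49Ae was at 10.79 in the test and 10.66 in the control lineage on F3 female number 3, and between 7.92 and 8.57 on the other F3 female arrays. In F0 and F1 females 5 of 62 were called, against 46.7% of all entries, and these were Cpr49Ac (2.49), Cpr51A (1.56), Cpr66D (1.34), Cpr67B (1.25) and Cpr65Av (0.63). In F0 and F1 males 3 of 33 were called, against 17.9% of all entries, and these were Cpr65Au, Cpr51A and Cpr49Ab. Without number 2 or 3 the female count was 1, and without number 1 or 3 the male count was 0. The share of all entries called in these smaller fits is not given.

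Cpr49Ac in F0 and F1 females again picked out number 2. It was at 5.81 on the F1 control array numbered 2, against 2.84 and 2.41 on the other F1 control females. On number 2 it was at 4.55 in rpr/+; dilp3/+, 5.60 in rpr/+; ser/+, 4.49 in cyo/+; dilp3/+ and 5.79 in cyo/+; ser/+ siblings, but at 2.74 in the founders. Cp36 on the F1 control female array numbered 2 was at 9.72, against 13.19 and 13.70 on numbers 1 and 3.

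Descendants without the constructs were set against their controls to see whether the ancestral treatment left a trace in F2 and F3. No cuticle protein gene was called in any of the 4 comparisons with limma, nor was any other entry (0% each). At an unadjusted p under 0.05 there were 0 members and 20 of all entries in F2 females, 1 and 27 in F3 females, 1 and 97 in F2 males, and 1 and 54 in F3 males. These fits took batch but did not pair arrays by number, so spread between numbers entered their error and a small difference could be missed. In F2 females the deviations of same-numbered test and control arrays correlated at 0.92 to 0.97. With the replicate number as a block, 0 members were called as well. The median log2 change of the members was 0 in F2 females and 0.04 in F2 males, against 0.01 and 0.00 over all entries tested. Leaving out any 1 array, the male F2 control array numbered 3 included, left the member count at 0 in each.

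The members closest to the threshold had adjusted p = 1 in limma's test. TwdlT in F2 males was at 4.64, 5.19, 4.95 and 5.12 on the test arrays, against 3.99, 4.24, 4.35 and 4.47 on the control arrays. The groups did not overlap, the change was 0.71 ± 0.23 (SE, unadjusted p = 0.00531), and TwdlE was next at 0.26. Cpr56F in F3 males was at 2.30, 2.26, 2.49 and 2.30 in the test lineage, against 2.62, 3.26, 2.99 and 2.68 in the control lineage, a change of -0.55 ± 0.15 (unadjusted p = 0.0016). Cpr73D followed with 0.46. Pcp in F3 females was at 3.43, 3.51, 3.18 and 2.56, against 4.53, 4.90, 3.86 and 3.37, with overlapping groups but the test array lower in 4 of 4 same-numbered pairs. Its change was -1.0 ± 0.42 (unadjusted p = 0.0263), with adjusted p = 0.678 when F3 females were fitted alone with the replicate number as a block, and TwdlE followed at 0.12. In F2 females Cpr11A came first with -0.41 and Cpr60D after it with 0.33. The differences of these effects between the sexes passed limma's test in 0 members (0% of all entries). At an unadjusted p under 0.05 there were 0 members and 20 of all entries in F2, and 2 and 19 in F3. In F2 Cpr11A (0.45) and Cpr50Cb (-0.30) had the smallest p, and in F3 Cpr56F (-0.55) and Pcp (1.00).

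Several genes with a wide span over F2 numbers had lower means in F3 than in F2, among them Cpr92F, Cpr100A and Cpr49Ae, but no member passed the test. Others went the other way, with Cpr67Fb at 8.89 to 9.98 in F3 and 4.79 to 8.13 in F2 control males. The F3 controls over F2 controls gave 0 called members in each sex with limma and 0% of all entries. At limma's unadjusted p under 0.05 there were 12 of 62 members and 439 of 12809 entries in females. In males there were 13 of 33 members and 1218 of 11357 entries. The member shares were not tested against those of all entries. In females Cpr49Ae differed by -2.83 ± 0.71 and Cpr100A by -4.33 ± 1.13 (SE, adjusted p = 0.816 for both). F3 control females had Cpr49Ae at 8.34 to 10.66, below the F2 control range of 10.71 to 13.76. In males Cpr92F differed by -6.49 ± 1.64 (adjusted p = 0.223) and Cpr73D by -1.04 ± 0.28 (adjusted p = 0.251). Cpr92F entered these fits only because of its F2 arrays, so its difference reuses the values that admitted it. The test lineage gave -3.03 for Cpr49Ae and -4.31 for Cpr100A in females, and -6.46 for Cpr92F and -4.96 for Cpr100A in males. Again 0 were called by limma (0% of all entries). At an unadjusted limma p under 0.05 there were 11 members and 407 of all entries in females, and 12 and 637 in males.

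Within the batch that F2 and F3 controls shared, the same genes averaged lower in F3. In batch 1 females Cpr100A averaged 4.26 in F3 and 6.81 in F2 controls, and Cpr49Ae 9.61 and 11.55. In batch 2 males Cpr92F averaged 2.23 in F3 and 7.20 in F2 controls, and Cpr100A 2.93 and 6.31. Each of these means covers 2 arrays, which in F2 males are numbers 1 and 4. Over both lineages Cpr92F averaged 12.03 on number 1 and 2.23 on number 4, and Cpr100A 10.12 and 2.48. On number 4 neither gene stood above its F3 mean, so the male difference in this batch rested on number 1. Cpr92F was called, with 1 other member, without the male F2 control array numbered 4. Without control array 3, 0 members were called and Cpr92F differed by -6.46 (adjusted p = 0.319). The change from F2 to F3 did not differ between the sexes at the threshold, with 0 members called by limma (0% of all entries). At an unadjusted p under 0.05 there were 4 members and 416 of all entries. Cpr67Fb (2.51, unadjusted p = 0.00753) and Cpr65Au (1.59) came closest.

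Founders carried both constructs and were set against w1118 controls. In male founders Cpr51A, a Cpr gene of arm 2R, fell and Cpr11A rose, 2 of 33 members against 3.43% of all entries (1.22% higher and 2.21% lower). Cpr51A was at 6.28, 4.86 and 6.13 on the male founder arrays, against 8.91, 8.63 and 8.20 on the control arrays. The groups did not overlap, and the change was -2.66 ± 0.39 (SE, adjusted p = 0.000153), a 7.07-fold lower level by plain group means. In batch 1 male founders had 6.28 against 8.91 in the control, and in batch 3 6.13 against 8.63. The call held in all 15 alternatives computed, with adjusted p up to 0.0282. Cpr11A was at 2.67, 3.70 and 3.72 in male founders, against 2.67 on each of the 3 control arrays, a change of 0.64 ± 0.18 (adjusted p = 0.0405) that lost its call without founder array 2 or 3 or any 1 of the control arrays (adjusted p up to 0.301).

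In female founders Cpr51A fell and Cpr23B rose, 2 of 62 members against 0.828% of all entries (0.398% higher and 0.429% lower). Cpr51A was at 3.94, 4.87 and 4.16 on the female founder arrays, against 5.83, 8.0 and 5.77 on the control arrays, again without overlap. The change was -2.41 ± 0.53 (adjusted p = 0.0277). In batch 2, which holds 2 founder arrays and 1 control, the founders had 3.94 and 4.16 and the control 5.77. The female call was lost with no batch term (adjusted p = 0.227), with F0 and F1 arrays fitted apart (0.653) and without founder array 1 or 2 or control array 2 or 3 (up to 0.133). Cpr23B was at 3.23, 2.30 and 3.18 in female founders and at 2.23 on every control array, an increase of 0.77 ± 0.16 (adjusted p = 0.0165). It was not called with no batch term (adjusted p = 0.0704), with F0 and F1 arrays fitted apart (0.129), or without founder array 1 or 3 or control array 3 (up to 0.125).

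The founders' difference did not pass the test between the sexes for any member, against 0.119% of all entries. At an unadjusted limma p under 0.05 there were 5 of 67 members and 679 of 13420 entries. Cpr23B (-0.69, adjusted p = 0.0976) and Cpr11A (0.94, 0.273) were the nearest, and Cpr51A differed by -0.70 with a 95% interval from -2.30 to 0.90. Cpr65Au was at 10.43, 8.86 and 10.27 in male founders, against 12.25, 11.16 and 11.47 in controls, and its change of -1.40 ± 0.41 did not pass (adjusted p = 0.0597). With the replicate number as a block, 4 members were called in male founders, Cpr51A and Cpr65Au with Cpr49Ab (-1.19) lower and Cpr66D (1.25) higher. The share of all entries called under the block is not given. Residuals of same-numbered male founder and control arrays were not correlated throughout, so the block was not taken as pairing.

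**Figure D4:**
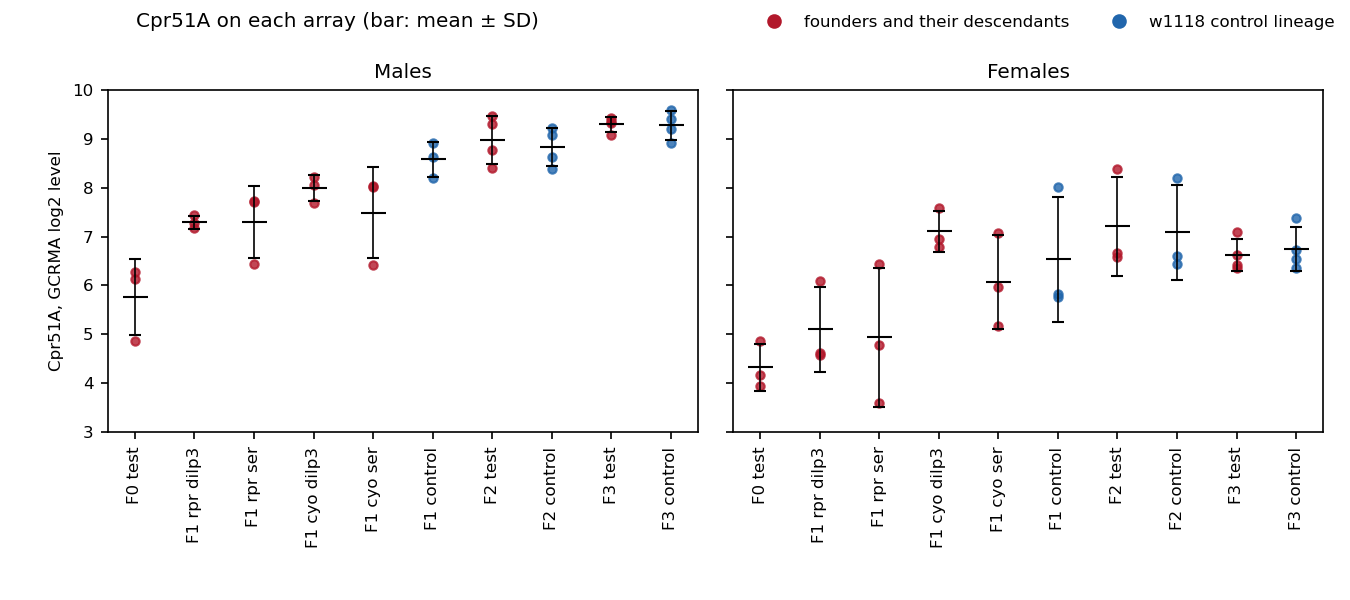
Cpr51A on each array (points; GCRMA log2 level) with group mean ± SD, males left and females right, in the founders, the 4 kinds of F1 siblings and the F2 and F3 test and control lineages. Male founders lie between 4.86 and 6.28, below all F1 control males at 8.20 or above, and the F2 and F3 lineages overlap.

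Other genes that differed in founders were few among the lists. In female founders Lsp2, a larval storage protein gene, was 3.42 lower on the log2 scale (adjusted p = 0.0486) at 5.80, 5.75 and 9.59 against 11.50, 9.18 and 10.04, with overlapping groups. Mst98Cb, a testis gene, was higher by 0.88 in female founders. In male founders Idgf5, a chitinase-like growth factor gene, fell by 1.57 (adjusted p = 0.00426), and the seminal fluid genes Ebp and EbpII fell by 2.13 and 2.04 while Dup99B rose by 1.31. Among chitin genes 1 of 28 was called in male and 0 of 28 in female founders, and 0 genes of the other cuticle, tanning and moulting lists were called in either sex.

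F1 siblings inherited one construct or both, or neither where the balancers were passed on. Cpr51A in male siblings was at 7.44, 7.18 and 7.27 in rpr/+; dilp3/+, at 7.72, 6.44 and 7.71 in rpr/+; ser/+ and at 8.04, 6.41 and 8.01 in cyo/+; ser/+, all under the lowest control value of 8.20. The cyo/+; dilp3/+ males were at 8.06, 7.69 and 8.22 and overlapped the control arrays. None of these passed the test. The changes were -1.12 (unadjusted p = 0.00881), -1.29 (unadjusted p = 0.00242), -1.04 (unadjusted p = 0.0127) and -0.59 (unadjusted p = 0.133). With the replicate number as a block, which the residuals of same-numbered arrays bore out for rpr/+; ser/+, Cpr51A was called there (adjusted p = 0.0276).

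No member was called in male siblings of any genotype, against 0.22% of all entries in rpr/+; dilp3/+, 0.484% in rpr/+; ser/+, 0.282% in cyo/+; dilp3/+ and 0.396% in cyo/+; ser/+. At limma's unadjusted p under 0.05 there were 2, 2, 1 and 4 of 33 members. Of 11357 entries tested, 625, 892, 679 and 1030 passed that level. Besides Cpr51A, the smallest p belonged to TwdlP (0.53) in rpr/+; dilp3/+, to TwdlT in rpr/+; ser/+ (-0.59) and cyo/+; ser/+ (-0.62), and to TwdlT (-0.71) and TwdlH (-0.34) in cyo/+; dilp3/+. In cyo/+; ser/+ males the block, which the residuals also bore out, called Cpr49Ab (-1.0, adjusted p = 0.0314).

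In females the 4 sibling genotypes divided by their batches. In rpr/+; dilp3/+ females 0 of 62 members were called (0.117% of all entries). At limma's unadjusted p under 0.05 there were 579 of all entries and 4 members, led by TwdlH (-0.25) and Cpr51A (-1.23). In cyo/+; ser/+ females 0 of 62 were called (0.18% of all entries). There 868 of all entries and 4 members were under 0.05 unadjusted, the members led by TwdlV (0.49) and Cpr72Eb (0.48). In rpr/+; ser/+ females 1 member was called higher and 2 lower (8.55% of all entries, 3.82% higher and 4.73% lower). In cyo/+; dilp3/+ females 5 of 62 were called, all lower (20.4% of all entries, 11.7% higher and 8.74% lower). Both shares lay below that of all entries.

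Those calls rested on a batch adjustment. The rpr/+; ser/+ and cyo/+; dilp3/+ females lie in batches 3 and 4 and their controls in batches 1 and 2, and batch 3 also holds the F2 female arrays numbered 2. In rpr/+; ser/+ females Cpr51A differed by -3.35 ± 0.65 and Cpr49Ac by -4.31 ± 1.01, and Cpr47Ed by 0.73 ± 0.18 (adjusted p = 0.0071, 0.0161 and 0.0187). On the arrays Cpr49Ac was at 2.41, 5.60 and 2.36 in rpr/+; ser/+ females, against 2.84, 5.81 and 2.41 in controls, a difference of plain means of -0.23. In cyo/+; dilp3/+ females Cpr49Ac (-4.74), TwdlT (-2.02), Cpr73D (-1.44), TwdlG (-1.06) and Cpr78E (-1.96) were called lower. Plain means of Cpr78E differed by 0.03. With no batch term, with the replicate number as a block that the residuals bore out, or without the F2 arrays numbered 2, 0 members were called in either genotype. Without the F1 control array numbered 2 all but Cpr51A in rpr/+; ser/+ and Cpr49Ac in cyo/+; dilp3/+ lost their calls. In the same fits all 9 ovary and eggshell genes were called higher in both genotypes, among them Vm32E by 6.73 in rpr/+; ser/+ and Cp38 by 7.61 and Yp3 by 1.96 in cyo/+; dilp3/+ females. The summed log2 level of those 9 genes ran from 15.19 to 16.64 on rpr/+; ser/+ arrays, 15.72 to 16.61 on cyo/+; dilp3/+ arrays and 15.44 to 16.74 on control arrays. Chitin genes were called lower in 2 of 28 and 11 of 28, with kkv at -3.81 and obst-E, a chitin-binding protein gene, at -2.03 in cyo/+; dilp3/+. Tanning genes were called lower in 1 and 3 of 10, with Pu, yellow-f2 and yellow-f at -2.04, -1.97 and -1.46 in cyo/+; dilp3/+. Burs, the gene of a tanning hormone subunit, was called in both genotypes and differed by -2.30 in rpr/+; ser/+, and the moulting regulators Blimp-1 and Eip93F by -1.64 and -1.89 in cyo/+; dilp3/+ females.

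Males and females of the control lineage differed in few cuticle protein genes. Of 67 members tested in both sexes together, 6 differed in F1 controls, 5 in F2 and 7 in F3, against 51.3%, 51.9% and 61.7% of all entries. Males were higher in 4, 3 and 6 of these members and lower in 2, 2 and 1. Over all entries 21%, 18.9% and 27.2% were higher in males and 30.3%, 33% and 34.5% lower. Cpr67Fb, Cpr51A and Twdlalpha were higher in males in all 3 generations, and Cpr65Au in F1 and F3. The median male over female change of the members was -0.07, 0.00 and 0.00 in F1, F2 and F3, against -0.05, -0.04 and -0.02 over all entries.

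Cpr67Fb had the widest sex difference. It was at 9.94, 10.70 and 8.97 in F1 control males, against 3.32, 3.42 and 3.32 in F1 control females. In F2 controls males had 5.96, 4.79, 8.13 and 7.98 and females 3.32, 3.40 and 3.32, and in F3 controls males had 8.89, 9.98, 9.03 and 9.50 and females 3.12, 3.32, 3.24 and 3.20. No male array of the controls overlapped a female one. The fitted differences were 6.33 ± 0.70, 3.41 ± 0.66 and 5.92 ± 0.62 in F1, F2 and F3 (adjusted p = 1.08e-10, 2.13e-05 and 1.95e-11), and the folds of plain means 91.9, 10.4 and 70.0. In batch 2, which holds 2 F3 control arrays of each sex, the difference was 5.80. The F2 males were low on numbers 1 and 2, where Cpr92F and Cpr100A were high.

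Cpr65Au was at 12.25, 11.16 and 11.47 in F1 control males, against 9.80, 9.80 and 9.20 in females, a difference of 2.01 ± 0.47 (adjusted p = 0.000324). In F3 it was at 12.76, 11.96, 12.73 and 12.79 in males, against 10.76, 10.37, 10.78 and 10.10 in females, a difference of 2.24 ± 0.42. In F2 it was at 12.75, 11.52, 12.33 and 12.36 in males, against 11.45, 12.38 and 10.85 in females, which overlap, and it was not called. Cpr51A was higher in control males by 1.94 ± 0.55, 1.90 ± 0.52 and 2.43 ± 0.49 in F1, F2 and F3. F3 control males had Cpr51A at 9.59, 8.91, 9.40 and 9.19, against 6.72, 7.39, 6.53 and 6.36 in females. All F1 and F3 control males thus lay above the control females of their generation for both genes.

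Twdlalpha, a Tweedle gene, was at 4.36, 5.01, 5.12 and 4.28 in F3 control males, against 2.43, 2.71, 2.43 and 2.60 in females. The differences were 1.45 ± 0.46, 1.19 ± 0.43 and 1.95 ± 0.41 in F1, F2 and F3, and all 3 calls were lost under quantile normalization (adjusted p = 0.0729, 0.535 and 0.0501). The F2 call was also lost without male control array 4 (adjusted p = 0.153) or female control array 2 (adjusted p = 0.0659). Pcp was the one member lower in males in F3. It was at 2.23 in all 4 F3 control males, against 4.53, 4.90, 3.86 and 3.37 in females, a difference of -1.79 ± 0.34 and a level at least 2.89-fold lower. Cpr56F (0.66) and Cpr62Bb (2.19) were higher in F3 control males. In F1 Cpr47Eb (-0.36) and Lcp65Ac (-0.41) were lower in males, and in F2 Cpr11A (-0.83) and Cpr92A (-0.52). Without 1 female array Cpr47Eb (adjusted p = 0.0879) and Lcp65Ac (adjusted p = 0.963, both without F1 control 3) and Cpr92A (adjusted p = 0.95, without F2 control 2) were not called. With the replicate number as a block, which the residuals bore out between the sexes of F1 controls, Lcp65Ac was not called (adjusted p = 0.0594, and 0.0569 with no batch term) and Cpr49Ac was called lower in males (-1.34, adjusted p = 0.0474). Without the male F2 control array that carried eggshell transcripts, 7 members were called in F2, 6 higher and 1 lower in males, and Cpr92A was not (-0.47, adjusted p = 0.0555). The share of all entries called in that fit is not given. Without that array Cpr67Fb (3.02), Cpr51A (1.94), Twdlalpha (1.35) and Cpr11A (-0.84) kept their calls.

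**Figure D5:**
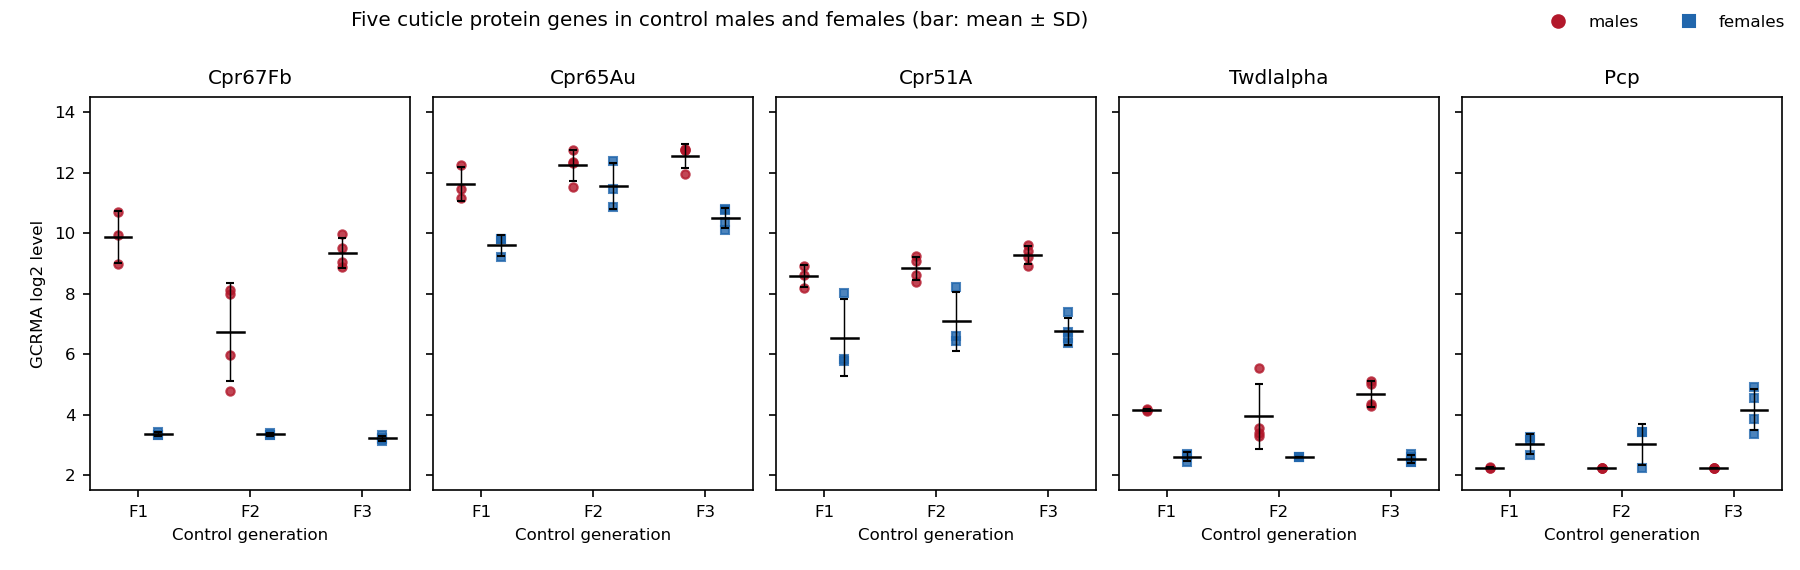
GCRMA log2 level of Cpr67Fb, Cpr65Au, Cpr51A, Twdlalpha and Pcp on each control array of F1, F2 and F3 (points), males left of females, with mean ± SD. Cpr67Fb separates the sexes in every generation, with males at 4.79 or above and females at 3.42 or below, and its F2 males spread most widely.

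The count of members called for sex in F2 changed with the fit. With the replicate number as a block 17 members were called in F2 controls, 10 higher and 7 lower in males. Same-numbered arrays of the sexes did not all correlate, and the numbers were not taken to pair them. The share of all entries called under the block is not given, and without the block it was 51.9%. Cpr72Ec, a member with large residual spread outside F2 numbers, was at 8.24, 3.42 and 5.67 in male founders, against 3.91, 3.44 and 2.73 in F1 control males. In rpr/+; dilp3/+ males Cpr72Ec was at 6.02, 3.22 and 8.09, and in cyo/+; dilp3/+ males at 6.41, 3.10 and 6.49. The male founder arrays overlapped the controls, and Cpr72Ec was called in no comparison between groups.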

How the data were processed

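The deposited series table holds log2 expression values, which the authors made with GCRMA per the submitters' processing notes, with no version named, and limma 3.46.0 is listed there without its use. How GCRMA was run is not given in the sources used here. Control probe sets were left out and genes with several probe sets represented by the one of highest mean. Entries had to lie above the 40th percentile (2.51 for female, 2.63 for male and 2.55 for all arrays) on 3 or more arrays, and 12809, 11357 and 13420 did. Differences were computed from these log2 values with limma (version 3.58.1; R 4.3.3, data.table version 1.17.8). Each fit took all groups of a sex and the labelled batch (4 levels), with 19 (female) or 21 (male) degrees of freedom left, or 43 for both sexes in 1 fit. The computation was tested on simulated data. Levels are given per array, errors are standard errors of the fit unless stated, and folds come from plain means of log2 levels. A fold written as "at least" sets the lower mean at the filter level of that sex.

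Per the labels each sample came from its own mating, so p-values measure the spread between those samples. Same-numbered arrays of the groups compared deviated together (every correlation over 0.1) in F2 and F3 of both sexes, in all female comparisons of F0 and F1, in male rpr/+; ser/+, cyo/+; dilp3/+ and cyo/+; ser/+, and between the sexes of F1 controls. They did not in male founders, male rpr/+; dilp3/+ or between the sexes of F2 and F3.

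Members and lists were chosen with earlier results of these data known. Every called member was named in a comparison with 10 or fewer (otherwise 5 each way by smallest p), and where none was called the 2 of smallest p as not passing, with the 8 members of largest residual spread and, per list, up to 3 called genes of smallest p. Alternatives were no batch term, the replicate block, array sets fitted apart, batch numbered by set, other filters, quantile normalization and leaving out each array. Leaving out F2 arrays numbered 2, the shared block, the F3 over F2 test comparison and the tests of replicate number were chosen after the data were seen. Gene names and neighbours come from the platform annotation and RefSeq's Release 6 plus ISO1 MT table, and no sequences were used. Python 3.11.15 with pandas 2.3.3, numpy 2.4.6 and matplotlib 3.10.9 made the summaries and plots.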

Additional observations from a re-analysis of the deposited data

Results flagged for a closer look

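In groups of 4 arrays, the gap between the highest or lowest array and its nearest neighbour was set against the whole range, and a share above Dixon's 95% critical value stood out. Among named members 86 groups of 4 had a range of at least 0.5 and a level above the filter, and 20 of these stood out. Dixon's value is set to pick 1 in 20 groups by chance, but that rate was not measured for groups chosen by range or with values tied at the bottom of the scale. In F3 females number 3 stood high for Cpr100A, at 5.74 in the test and 5.76 in the control lineage with the other arrays at 2.43 to 2.76, and for Cpr49Ae, at 10.79 in the test and 10.66 in the control lineage with the others at 7.92 to 8.57. Cpr92F stood at 4.20 in the test and 2.90 in the control lineage on F3 female number 3, with the others at 2.23, and Cpr97Eb at 3.34 on the control array numbered 3. On F3 female control number 2, Cpr49Ac stood at 3.33 and Cpr72Ec at 4.09.

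In F2 males number 2 stood high for Cpr49Ah, at 6.42 in the test and 7.70 in the control lineage, and for Cpr78E, at 4.05 in the test and 3.39 in the control lineage. In F2 male controls number 2 was also high for Cpr97Ea at 8.48 and Cpr50Cb at 3.15. Cpr65Au stood low on number 2, at 11.89 in F2 male test flies and 11.96 in F3 male controls. Other single F2 male control arrays stood high for Cpr60D (number 1, 3.54), Cpr56F (number 4, 3.15) and Twdlalpha (number 4, 5.55). Several of these arrays share a number with the F2 arrays described above, and the causes were not tested.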

How the results depend on the processing

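Counts of called members are given as value under each alternative. The share of all entries called under each alternative is not given, so a moved count may also reflect a change over all entries. With no batch term they were 0 in female founders, rpr/+; ser/+ and cyo/+; dilp3/+, with array sets fitted apart 0 in these, 1 in male founders and 11 for sex in F2, and with batch numbered by set 1 in female founders, 0 in rpr/+; ser/+ and cyo/+; dilp3/+ females and 9 for sex in F2. With the 60th percentile filter they were 1 in female founders, 1 in male founders, 1 in cyo/+; dilp3/+ females, and 3, 2 and 4 for sex in F1, F2 and F3. With no filter they were 2 in male rpr/+; ser/+, 1 for the founders' difference between sexes and 0 over F0 and F1 male numbers. Quantile normalization gave 5 in rpr/+; ser/+ females and 10 for sex in F1 and in F2. Without the F2 arrays numbered 2 counts were 1 in female founders and 0 in rpr/+; ser/+ and cyo/+; dilp3/+ females.

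With the replicate number as a block the counts were 0 in rpr/+; ser/+ and cyo/+; dilp3/+ females, 4 in male founders, 1 each in male rpr/+; dilp3/+, rpr/+; ser/+ and cyo/+; ser/+, 17 for sex in F2 and, with a number shared over generations that no label ties together, 2 for male F3 over F2 controls. Under the block, signs turned for Cpr49Ac in rpr/+; ser/+ (0.89) and cyo/+; dilp3/+ females (0.46) and for TwdlT (0.052) and TwdlG (0.10) in cyo/+; dilp3/+ females. The block moved no count in F2 or F3 test against control. Cpr78E in cyo/+; dilp3/+ females turned to 0.025 with no batch term. Cpr60D in F2 females turned to -0.00060 without the arrays numbered 2. Leaving out 1 array moved Cpr60D in F2 females between -0.12 and 0.51, Cpr92A for sex in F2 between -0.76 and 0.026, and Cpr50Cb for the F2 difference between sexes between -0.69 and 0.21, each turning sign without a female array numbered 2. The causes were not tested.

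Leaving out 1 array gave 0 to 2 in female founders, 1 to 7 in rpr/+; ser/+, 2 to 4 in cyo/+; dilp3/+ and 0 to 1 in cyo/+; ser/+ females, 1 to 4 in male founders, 0 to 1 for female and 0 to 3 for male F3 over F2 test, 0 to 2 for male F3 over F2 controls, 5 to 11, 4 to 10 and 7 to 8 for sex in F1, F2 and F3, and 0 to 1 for the founders' difference between sexes. Leaving out 1 number gave 0 to 23 over F2 female, 1 to 5 over F0 and F1 female, 8 to 21 over F2 male and 0 to 2 over F0 and F1 male numbers. All other comparisons gave 0 throughout. Few arrays per group, levels near the bottom of the scale and batches that hold 1 group limit these results.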

Other observations

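Several probe sets match more than 1 cuticle protein gene and were left out of the members. The brighter probe set of Obp57d and Cpr57A ranged from 5.67 to 9.20 on F2 female arrays, against 5.04 to 6.23 on F3 and 5.28 to 7.95 on F0 and F1 female arrays. In males it was at 6.80 to 8.65 in F2, 6.48 to 7.71 in F3 and 6.30 to 8.83 in F0 and F1. The probe set does not tell the 2 genes apart. The probe set of Lcp65Ag1 and Lcp65Ag2 ranged from 3.13 to 6.12 on F2 female arrays (median 3.65), against 2.26 to 2.91 on F0 and F1 female arrays and 2.26 to 3.99 on F3 female arrays. In males it was at 2.23 to 3.24 in F2, 2.26 to 2.37 in F0 and F1 and 2.25 to 2.72 in F3. Probe sets shared by Ccp84Aa and Ccp84Ab, by Cpr65Ax1 and Cpr65Ax2 and by Cpr67Fa1 and Cpr67Fa2 stayed at or below 3.55 on all arrays.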
